A study of Homo sapiens and Mus musculus with 20 samples.

Results

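Distal accessible regions that carried a binding site for the transcription factor AP-1 were followed in SW480 cells, an established human colorectal adenocarcinoma line, treated with a short-chain fatty acid. The 12 peak lists from SW480 ATAC-seq, an assay in which Tn5 transposase cuts and tags open chromatin, gave 252173 regions after merging, and at least 2 libraries had a peak in 167303 of them. Of these, 103181 had their highest summit more than 3 kb and at most 100 kb from the nearest protein-coding transcript start, and 17342 of them (16.8%) held TGACTCA or TGAGTCA wholly within 100 bp of that summit. These 17342 regions are called AP-1 regions here, and the 85839 other distal regions are called regions without a site. The choice rested on sequence, position and the presence of a peak in any 2 libraries. No difference between treated and untreated cells was used as a criterion. The highest summit could come from a treated library, however, so the choice was not wholly free of the treated signal, as described below.

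In one experiment the cells received 10 mM sodium propionate (NaPr) and in the other 1 mM sodium butyrate (NaBu), each for 12 to 16 h. Each experiment had 3 treated libraries and 3 untreated libraries (0 mM) of its own, with different dates on the labels of the experiments, and 50000 viable cells entered each Omni-ATAC reaction. All 12 libraries came from the same line. The labels did not state that replicates were separate cultures, so p-values measure the spread between these libraries, which may be technical. The comparisons address how chromatin accessibility in a colorectal cancer line changes with fatty acids that gut bacteria make from dietary fibre.

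AP-1 is a dimer of proteins of the JUN, FOS, ATF and MAF families, whose leucine zippers pair and whose basic regions grip a short palindrome in DNA, the TPA response element TGACTCA, which reads TGAGTCA on the other strand. It is induced by growth factors, stress and phorbol esters through the MAP kinases, and it occupies far more enhancers than promoters. At many enhancers it is among the factors that keep chromatin open, and in intestinal tumour cells it acts on genes of proliferation, adhesion and invasion.

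The site and its surroundings are shown for 7 regions: those with the largest rise and fall in each experiment, the largest joint rise, an example that went opposite ways, and the region with the highest peaks. Each stretch is the plus strand of GRCh38 with 30 bp on either side of the site nearest the summit, and capitals mark the AP-1 site. The stretches are chr4:83516149-83516215 in an intron of ABRAXAS1, chr1:156122996-156123062 in an intron of LMNA, chr11:13098253-13098319 in a noncoding gene with RASSF10 as the nearest protein-coding gene, chr2:9809529-9809595 between genes near TAF1B, chr15:74193372-74193438 in an intron of STRA6, chr1:248892757-248892823 between genes near PGBD2, and chr15:85296729-85296795 in a noncoding gene near AKAP13.
ABRAXAS1: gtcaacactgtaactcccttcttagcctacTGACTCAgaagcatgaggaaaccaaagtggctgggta
LMNA: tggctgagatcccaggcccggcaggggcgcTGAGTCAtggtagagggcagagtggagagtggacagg
RASSF10: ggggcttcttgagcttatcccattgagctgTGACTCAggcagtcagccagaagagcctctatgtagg
TAF1B: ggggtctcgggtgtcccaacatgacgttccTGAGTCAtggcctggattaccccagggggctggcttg
STRA6: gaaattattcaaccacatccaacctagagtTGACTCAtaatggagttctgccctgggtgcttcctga
PGBD2: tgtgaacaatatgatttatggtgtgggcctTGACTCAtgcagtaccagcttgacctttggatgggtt
AKAP13: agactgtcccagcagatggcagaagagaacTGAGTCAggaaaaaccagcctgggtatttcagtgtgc

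Most AP-1 regions held a single site. One site was found in 16103 regions, 2 in 1161, 3 in 61 and 4 in 13, and 4 regions held between 5 and 7. The most sites, 7, were found near NID1 and near DBNDD1, and both windows were arrays of a short repeated unit. In the window near NID1, chr1:236097163-236097363 on the plus strand of GRCh38, the same unit recurred with a site in each copy, which is why it is shown whole, with the sites in capitals.
NID1: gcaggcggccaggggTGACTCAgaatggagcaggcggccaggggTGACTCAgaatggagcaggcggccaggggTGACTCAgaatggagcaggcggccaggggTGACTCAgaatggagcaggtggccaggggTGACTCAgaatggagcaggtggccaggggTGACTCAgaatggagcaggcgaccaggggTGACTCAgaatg

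Sites lay close to the summit. The median distance from the summit to the centre of the nearest site was 34 bp, 15.0% of AP-1 regions had a site within 10 bp, 37.5% within 25 bp and 70.1% within 50 bp. In the 1161 regions with 2 sites the median spacing was 43 bp, and the most common spacings were 11 bp (30 regions), 16 bp (26) and 12 bp (24). Counted in bins of 20 bp over all distal regions, site density was 27.0 per 1000 regions at 20 bp before the summit and fell to 3.61 per 1000 at 500 bp. The same density was 46.4 in distal regions called higher with NaPr and 12.4 in those called lower, and it was 36.9 and 25.8 in those called higher and lower with NaBu.

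**Figure D1:**
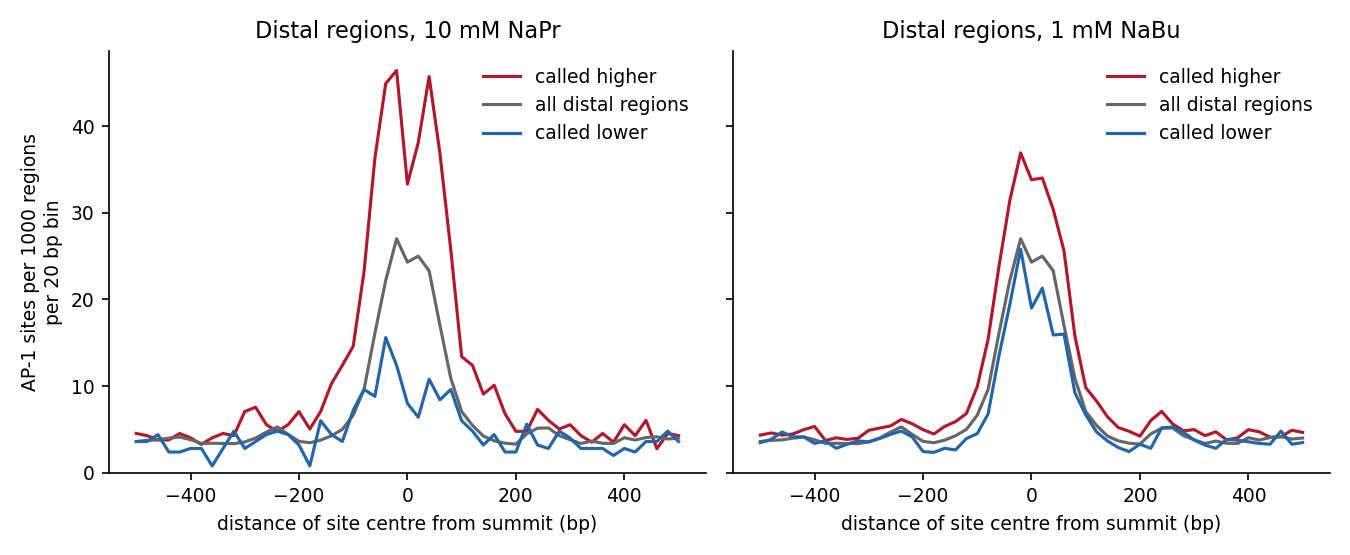
Density of AP-1 sites (sites per 1000 distal regions in each 20 bp bin, vertical axis) against the distance of the site's centre from the summit (bp, horizontal axis), for NaPr (left) and NaBu (right). Lines stand for all distal regions and for those called higher or lower; at 20 bp before the summit the line for regions called higher reaches 46.4 with NaPr and 36.9 with NaBu, and the line for all distal regions 27.0.

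AP-1 regions were mostly intronic or intergenic. Of the 17342, 8701 (50.2%) had their summit in an intron of a protein-coding gene, 5845 (33.7%) between genes and 2076 (12.0%) in a noncoding gene, and 332 lay in a UTR, 207 in a coding exon and 181 in another exon. Regions without a site had 47.2% in introns and 34.6% between genes. The median distance of AP-1 regions to the nearest start was 24379 bp, and 8241 genes were nearest to at least 1 of them. Their median GC content in the window was 48.8%, against 51.2% in regions without a site, and their median width was 620 bp against 554 bp. A peak in all 12 libraries was found in 31.9% of AP-1 regions and in 26.0% of regions without a site. The consensus was less frequent near starts, where 2670 of 32955 regions within 3 kb (8.10%) held it, than beyond 100 kb, where 5683 of 31167 (18.2%) did. It was in 15.4% of all windows of this length over the 167303 regions.

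Depth differed between the libraries. Read totals were not analysed here, and a mean pileup recovered from the lists, a measure that scales with depth, was 0.936, 2.35 and 2.02 in NaPr untreated replicates 1 to 3 and 0.938, 1.27 and 1.77 in treated replicates 1 to 3, whereas the NaBu experiment spanned 2.11 to 3.03. Every list stopped at nearly the same length, 299022 to 299463 summit lines, which formed 108442 to 144398 peak intervals, and its weakest peak had a −log10 p between 3.37 and 9.38. Regions were therefore ranked within each library by their highest −log10 p, from 0 for no listed peak to 100. The lowest rank that a listed peak could have was between 15.5 and 26.1. A rank of 0 means no listed peak, and the lists cannot tell a peak below their limit from closed chromatin.

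Against the other regions of the same library, AP-1 regions moved up with both compounds. The median rank of AP-1 regions was 48.3 to 48.8 in the 3 NaPr untreated libraries and 54.3 to 55.4 in the 3 treated libraries. In the NaBu experiment it was 47.4 to 48.0 in untreated and 52.8 to 53.9 in treated libraries. In neither experiment did the treated and untreated libraries overlap. Regions without a site had medians of 44.7 to 45.5 and 43.9 to 44.8 in the NaPr experiment, and of 45.5 to 45.7 and 45.9 to 46.2 in the NaBu experiment. Ranks are relative within a library and cannot show a gain or loss shared by all regions.

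**Figure D2:**
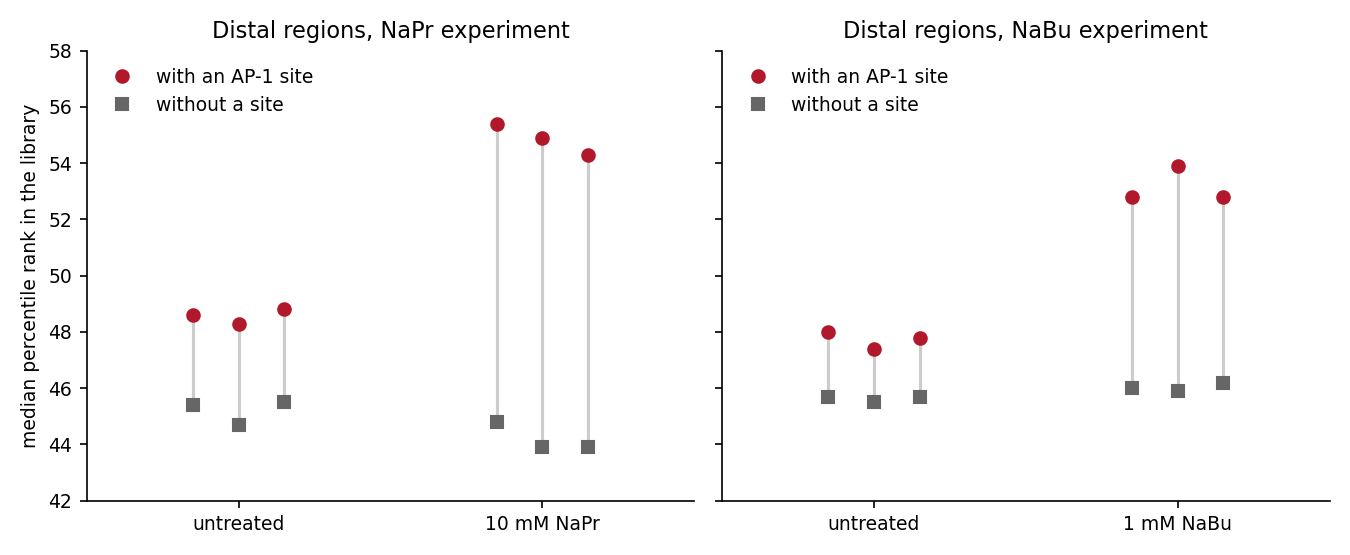
Median percentile rank in each library (vertical axis) of distal regions with an AP-1 site (circles) and without one (squares), for the NaPr (left) and NaBu (right) experiments, 1 symbol per library. The circles sit at 48.3 to 48.8 in NaPr untreated and 54.3 to 55.4 in NaPr treated libraries, and at 47.4 to 48.0 and 52.8 to 53.9 in the NaBu experiment.

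The number of AP-1 regions with a listed peak rose as well. It was 9535 to 10393 in NaPr untreated and 11821 to 12422 in NaPr treated libraries, and 9741 to 10007 in NaBu untreated and 12071 to 12526 in NaBu treated libraries. As a share of all distal regions with a peak, it was 16.9% to 17.2% without and 19.5% to 19.7% with NaPr, and 17.6% to 17.8% without and 19.3% to 19.7% with NaBu. With 3 libraries against 3, an exact permutation test of such a value cannot go below p = 0.1.

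With NaPr, AP-1 regions were called higher more often than lower. Of 13639 AP-1 regions tested with limma, 1218 (8.93%) were called higher and 227 (1.66%) lower at an adjusted p below 0.05. Over all 124067 tested regions the shares were 4.54% higher and 3.97% lower. Distal regions without a site had 4.28% higher and 3.53% lower. The median change was 4.84 percentile points in AP-1 regions, 0.0249 over all regions and −0.225 in distal regions without a site. Regions within 3 kb of a start that held a site had 152 higher (7.27%) and 108 lower (5.17%) of 2090 tested. These shares are described and were not tested against each other.

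Some regions could only move one way. A region entered the test with a listed peak in 2 of the 6 libraries, and 1759 of the tested AP-1 regions had peaks in NaPr treated libraries only and 301 in untreated libraries only. Their direction was set by this filter, and 362 and 46 of them were called. Among the 11579 AP-1 regions with a listed peak in both arms, a split made after the data were seen, 856 (7.39%) were called higher and 181 (1.56%) lower, beside 3.63% and 3.71% of all 105616 such regions, and the median change was 3.11 percentile points. Distal regions without a site and with peaks in both arms had 3.47% higher, 3.10% lower and a median change of −0.254.

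The NaPr counts depended on each library, while the direction did not. Without untreated replicate 1, 548 AP-1 regions were called higher and 50 lower, without untreated replicate 2, 169 and 8, and without untreated replicate 3, 118 and 3. These were 4.17% and 0.381%, 1.27% and 0.0600%, and 0.887% and 0.0225% of the tested AP-1 regions. Over all tested regions the shares were 2.06% and 1.16%, 0.602% and 0.188%, and 0.422% and 0.0889%. Without treated replicate 1, 2 or 3, limma called 0 higher and 0 lower, and at an unadjusted p below 0.05 the counts were 2939 and 737, 2997 and 737, and 3079 and 779. At this unadjusted limit only AP-1 regions were counted, so no share over all regions stands beside them. The median change of AP-1 regions stayed between 4.43 and 5.20 in these 6 fits. Scalings that do not use ranks were fitted only on regions with a peak in all 6 libraries, 7417 AP-1 regions against 13639 with ranks. On them the split moved, with fewer regions as well as another scale. On the log2 pileup over background 98.9% of the calls were higher, with 1955 AP-1 regions higher and 21 lower. On log2 fold enrichment without centring 98.0% were higher (347 and 7). On the pileup scale 26.4% of AP-1 regions were higher and 0.283% lower, beside 13.5% and 1.10% of all regions. On uncentred fold enrichment these were 4.68% and 0.0944%, beside 2.22% and 0.204%, so most calls over all regions were higher too. The median of all regions moved by 0.205 and 0.119 log2 units on these scales. With the pileup centred on its median, 1788 were higher and 619 lower (74.3% higher), against 84.3% higher with ranks. On this scale 24.1% of AP-1 regions were higher and 8.35% lower, beside 12.2% and 19.9% of all regions.

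With NaBu, the background of called regions was larger in both directions. Of 13332 AP-1 regions tested, limma called 3739 (28.0%) higher and 1530 (11.5%) lower, beside 19.7% and 17.2% of all 123730 tested regions. Distal regions without a site had 20.7% higher and 15.2% lower, and regions with a site within 3 kb of a start had 472 higher (21.0%) and 491 lower (21.9%) of 2243. The median change was 5.15 percentile points in AP-1 regions, 0.699 over all regions and 1.92 in distal regions without a site. Of the tested AP-1 regions, 2292 had peaks in treated libraries only (1253 called) and 416 in untreated libraries only (212 called). The 1253 were 54.7% of the 2292, beside 51.2% of all regions with peaks in treated libraries only. The 212 of 416 stood beside 52.1% of all regions with peaks in untreated libraries only. Among the 10624 with a peak in both arms, 2486 (23.4%) were higher and 1318 (12.4%) lower, beside 16.5% and 16.8% of all 99433 such regions, with a median change of 2.41, against 0.997 in distal regions without a site. Leaving out each library in turn gave 3223 to 3652 higher and 1191 to 1383 lower. In these fits 24.5% to 28.9% of AP-1 regions were higher and 9.09% to 11.1% lower. Over all regions the shares were 17.4% to 20.1% and 14.8% to 17.1%. Log2 fold enrichment centred on its median was fitted only on regions with a peak in all 6 libraries, 7912 AP-1 regions. Of the AP-1 calls 71.0% were higher with ranks and 52.9% (1374 and 1223) on that scale, over these fewer regions. On the latter scale 17.4% of AP-1 regions were higher and 15.5% lower, beside 14.2% and 15.3% of all regions.

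The summit around which sites were sought came from the library with the highest fold enrichment, and that was a NaPr treated library for 33.6% and a NaBu treated library for 35.4% of AP-1 regions, against 28.5% and 31.5% of regions without a site. When only summits of untreated libraries were used, 964 regions with a site were called higher and 227 lower with NaPr, with a median change of 3.31, and 3092 and 1525 with NaBu, with a median change of 3.21. With NaPr these were 7.93% and 1.87% of those tested, beside 4.54% and 3.97% of all regions. With NaBu they were 25.7% and 12.7%, beside 19.7% and 17.2%.

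The share called higher rose with the number of sites. With NaPr it was 8.68% of regions with 1 site, 11.4% with 2 sites (109 of 953) and 20.3% with 3 or more (14 of 69), and the shares called lower were 1.73%, 0.839% (8 regions) and 1.45% (1 region). With NaBu it was 27.7%, 31.4% (303 of 966) and 37.1% (26 of 70), and the shares called lower were 11.8%, 7.97% (77 regions) and 4.29% (3 regions). The size of the change followed the number of sites less closely, with medians of 4.73, 5.88 and 5.87 percentile points for NaPr and of 5.15, 5.14 and 6.13 for NaBu. With peaks in both arms the shares called higher were 7.14%, 9.86% and 18.3% (11 of 60) with NaPr and 23.1%, 26.5% and 35.0% (21 of 60) with NaBu.

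Regions with more sites also ranked higher in general. The median of their mean rank over the 6 libraries was 46.8, 59.7 and 58.9 for 1, 2 and 3 or more sites in the NaPr experiment and 46.7, 59.1 and 63.7 in the NaBu experiment. With the tested distal regions split into 4 classes of equal size by mean rank, the NaPr shares called higher in the top class were 8.89% with no site, 14.7% with 1, 16.7% with 2 and 25.8% (8 of 31) with 3 or more. In the lowest class, where ranks of 0 are common, limma called no region with NaPr whatever the number of sites, and the median change was −1.43 with no site, 18.6 with 2 sites and 5.63 with 3 or more (9 regions). With NaBu the shares called higher in the lowest class were 16.6% with no site, 26.1% with 1 and 33.1% with 2, whereas in the top class they were 28.1%, 27.7% and 29.8%. There the shares called lower were 16.8% with no site and 17.3% with 1, and the median changes 1.42 and 0.889, so in this class regions with 1 site had neither the larger share higher nor the larger median.

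Splitting into 4 classes by GC content gave the same order of shares called higher in the 3 lower classes with NaPr and with NaBu, but not in the class richest in GC. Below a GC content of 46.8% the NaPr shares called higher were 4.88%, 8.70%, 12.0% and 24.0% for 0, 1, 2 and 3 or more sites. In the class richest in GC they were 2.84%, 5.51%, 11.5% and 0% (0 of 13). In that class the NaBu shares were 19.0%, 23.7%, 20.7% and 14.3% (2 of 14), with median changes of 0.292, 1.11, 0.811 and 0.153.

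**Figure D3:**
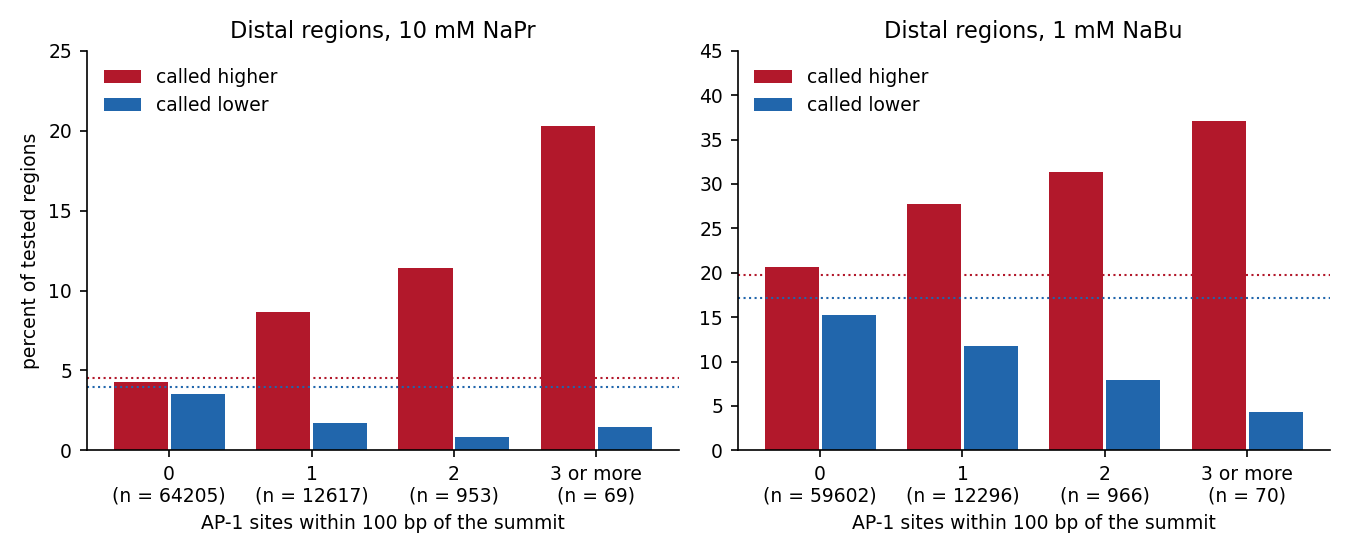
Percent of tested distal regions called higher or lower (vertical axis, bars from 0) by the number of AP-1 sites within 100 bp of the summit (horizontal axis, n tested under each class), for NaPr (left) and NaBu (right). From 1 site to 3 or more, bars of regions called higher go from 8.68% to 20.3% with NaPr and from 27.7% to 37.1% with NaBu, the last class holding 69 and 70 regions.

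The median change was larger for sites inside the window than outside it, while the share called higher was not largest nearest the summit. Regions whose nearest site lay within 10 bp had a median change of 5.06 percentile points with NaPr and 5.84 with NaBu, those with a site at 11 to 25 bp had 5.67 and 5.36, and those at 26 to 50 bp had 5.22 and 5.07. At 76 to 97 bp, just inside the window, the medians were 3.40 and 4.57, and in the next bin, just outside it, they were 1.92 and 3.95. In the farthest bin, which ended at 500 bp, they were 0.656 and 3.07. The shares called higher rose over the 5 bins inside the window from 7.18% to 9.99% with NaPr, went from 27.9% to 30.9% with NaBu with a low of 26.7% at 11 to 25 bp, and were 5.06% and 22.7% in the farthest bin. The NaPr medians fell more between these bins than the NaBu medians, and the difference was not tested.

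**Figure D4:**
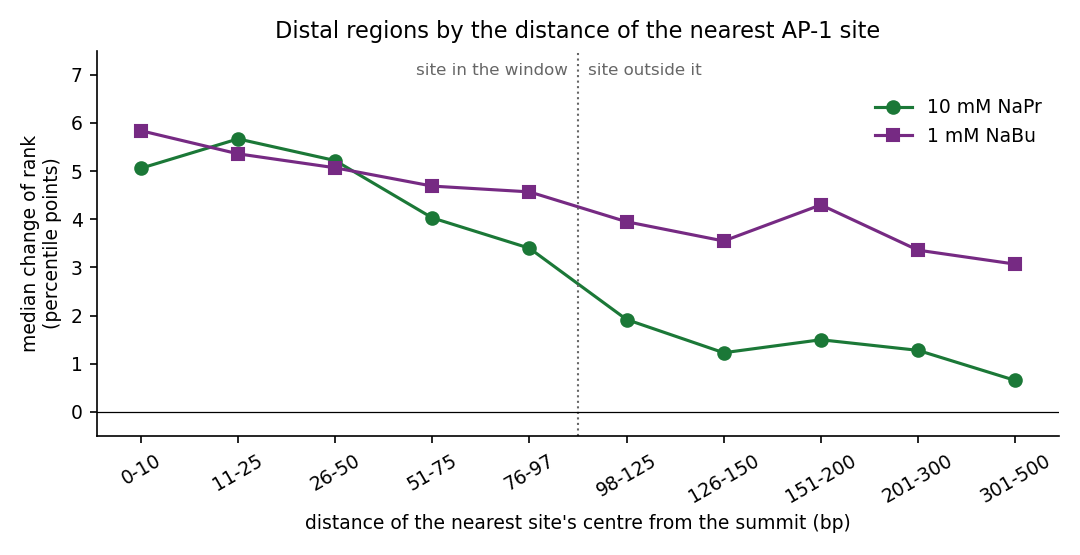
Median change of rank (percentile points, vertical axis) of distal regions against the distance of the nearest AP-1 site from the summit (bp, binned, horizontal axis), for 10 mM NaPr (circles) and 1 mM NaBu (squares), with the edge of the 100 bp window dotted. The NaPr medians go from 5.06 nearest the summit to 0.656 in the farthest bin and the NaBu medians from 5.84 to 3.07.

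Distance to the gene start made little difference. AP-1 regions at 3 to 10 kb, 10 to 30 kb and 30 to 100 kb had 9.17%, 9.44% and 8.35% called higher with NaPr and 28.8%, 28.5% and 27.3% with NaBu. Their median changes were 4.65, 4.55 and 5.23 with NaPr and 5.55, 4.97 and 5.13 with NaBu. Intronic and intergenic AP-1 regions had 8.97% and 9.02% called higher with NaPr and 28.0% and 28.7% with NaBu.

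Many AP-1 regions passed the limit of a list in one arm only. A peak in every treated library and in none of the untreated ones was found in 690 AP-1 regions (3.98%) with NaPr and in 1255 (7.24%) with NaBu, beside 2.19% and 4.74% of all 167303 regions. The reverse was found in 78 (0.450%) with NaPr and 212 (1.22%) with NaBu, beside 1.11% and 2.75%. Among regions without a site the shares gained were 2.10% and 4.55%, and the shares lost 1.39% and 2.54%.

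The untreated cells of the other experiment had such a peak in all 3 libraries for a minority of these regions. Of the 690 regions with a peak only in NaPr treated libraries, 119 (17.2%) had one in all 3 NaBu untreated libraries and 488 (70.7%) in none of them. Of the 1255 with a peak only in NaBu treated libraries, 333 (26.5%) had one in all 3 NaPr untreated libraries and 596 (47.5%) in none. Of the 78 NaPr regions that lost the peak, 32 (41.0%) had it in all 3 NaBu untreated libraries and 32 (41.0%) in none. Of the 212 NaBu regions that lost it, 31 (14.6%) had it in all 3 NaPr untreated libraries and 154 (72.6%) in none. The separate dates and the cells of the experiments cannot be told apart here. Both compounds gave a peak in treated libraries only in 102 regions and took it away in 5, and no region gained with one compound and lost with the other. These were counted in AP-1 regions only, so no share over all regions stands beside them.

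The compounds mostly moved AP-1 regions the same way, as they did distal regions without a site. Among 9936 AP-1 regions tested in both experiments, which share no library, 690 were called higher in both, 101 lower in both, 8 higher with NaPr and lower with NaBu, and 11 the reverse. Among 39765 distal regions without a site these counts were 1534, 962, 23 and 61. The 690 were 67.1% of the 1028 called higher with NaPr and 22.8% of the 3030 called higher with NaBu, and for distal regions without a site these shares were 67.9% and 16.2%. The changes had the same sign in 71.9% of AP-1 regions and in 69.3% of regions without a site. Across the 9936 regions Pearson's r was 0.497 and Spearman's rank correlation 0.509, against 0.493 and 0.490 over 39765 regions without a site, and these regions are not independent replicates and share libraries. The doses differed, so the size of the NaPr and NaBu changes was not compared.

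Regions at 0 in every library of one arm passed the filter through the other arm only, so their changes are given below as a description, without a p-value. With NaPr the largest rises were in regions without a listed peak in any untreated library. A region in an intron of ABRAXAS1, which encodes the scaffold of a BRCA1 complex (chr4:83515892-83516680), had ranks of 0, 0 and 0 untreated and 77.9, 71.7 and 75.7 treated, a rise of 75.1 ± 8.62 points (SE). The treated ranks lay far above the untreated ones, and with NaBu the ranks were 0, 0 and 0 untreated and 0, 27.3 and 18.5 treated, which overlapped.

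Some of these regions already had a listed peak in untreated cells of the NaBu experiment. This was seen near ZSWIM6 (chr5:61327803-61328634), where the NaPr ranks went from 0 in all untreated libraries to 74.0, 68.4 and 71.0, and the NaBu experiment had 79.6, 83.9 and 85.3 untreated and 92.5, 93.8 and 94.0 treated. In RB1CC1, an autophagy gene (chr8:52695280-52696019), the NaPr rise was 72.2 ± 9.17 from 0, while the NaBu untreated ranks were 57.1 to 64.9. Near ARTN, a neurotrophic factor of the GDNF family (chr1:43929611-43930026), a region with 2 sites had no listed untreated peak in either experiment and rose by 71.0 ± 8.84 with NaPr and 56.1 ± 4.95 with NaBu.

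The largest NaPr falls were the mirror of these. In an intron of LMNA, which encodes lamins A and C (chr1:156122909-156123105, 3105 bp from a start), ranks of 67.3, 67.7 and 64.2 untreated became 0 in all 3 treated libraries, a change of −66.4 ± 9.13. With NaBu the same region went from 45.2, 49.5 and 56.3 to 0 in all 3, a change of −50.3 ± 5.56. No treated library of either experiment overlapped the untreated ones. Near MICALL2 and TUBD1 the NaPr changes were −64.8 ± 9.27 and −63.4 ± 9.49, and in KIFC3, a kinesin, where 1 treated library had a listed peak, the change was −56.9 ± 10.6 (adjusted p = 0.0163). With NaBu the MICALL2 region was not called, the TUBD1 region fell by 20.6 ± 3.88 (adjusted p = 0.00567), and the KIFC3 region had too few peaks to be tested.

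With NaBu the region near RASSF10, a Ras association domain gene (chr11:13097907-13098777), went from 0 in all 3 untreated libraries to 77.2, 80.3 and 81.7, a rise of 79.7 ± 4.58. In the NaPr experiment it had 81.6, 80.6 and 78.0 untreated and 93.5, 94.2 and 94.9 treated, a rise of 14.1 ± 1.26 (adjusted p = 0.00284). The untreated cells of the experiments thus stood at opposite ends of the scale at this region, and the treated ranks were above the untreated ones in each. Near STK39, a kinase of ion transport (chr2:168277857-168278956), the NaBu rise was also 79.7, from 0 in all untreated libraries, and the NaPr change was 31.9 ± 12.3 and was not called (adjusted p = 0.138).

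In ROCK2, a kinase of the actin cytoskeleton, and MYO10, an unconventional myosin of filopodia, intronic regions rose by 74.4 ± 7.97 and 71.2 ± 9.99 with NaBu. Each had 1 untreated library with a listed peak, at 27.8 and 37.7. A region near GARIN4 rose by 70.7 ± 4.86 with NaBu and by 52.0 ± 10.2 with NaPr (adjusted p = 0.0190).

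The largest NaBu falls lay near TAF1B, NR0B1, FZD10, KRT19 and CGNL1. Near TAF1B, a subunit of the RNA polymerase I factor SL1 (chr2:9809058-9810153), ranks of 79.0, 77.4 and 77.9 became 0 in all 3 treated libraries, a change of −78.1 ± 4.53. Near NR0B1, an orphan nuclear receptor on chromosome X (chrX:30313284-30314061), 76.2, 77.3 and 77.6 became 0, a change of −77.0 ± 4.54, and near FZD10, a Wnt receptor, the change was −74.2 ± 4.70. These 3 regions and the one in CGNL1, a junction protein with a change of −70.9 ± 5.02, had too few peaks in the NaPr experiment to be tested there.

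The fall near KRT19, a keratin of simple epithelia (chr17:41540820-41541643), was found with both compounds. With NaBu ranks of 81.0, 86.3 and 84.6 became 17.2, 0 and 16.3, a change of −72.8 ± 5.85 (adjusted p = 3.88e-04), and with NaPr 42.4, 50.4 and 46.7 became 0 in all 3, a change of −46.5 ± 9.94. Treated and untreated libraries did not overlap in either experiment.

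The largest joint rises had almost no listed peak in untreated cells of either experiment. In an intron of STRA6, the cellular receptor of retinol binding protein (chr15:74193266-74193915), ranks of 0 in all 6 untreated libraries became 70.5, 62.0 and 67.7 with NaPr and 69.7, 62.7 and 67.9 with NaBu. The rises were 66.7 ± 9.23 and 66.8 ± 4.97. A region 3897 bp from a start of EGR1, an immediate early zinc finger factor (chr5:138461389-138461654), went from 0, 0 and 29.7 to 81.9, 74.2 and 70.1 with NaPr and from 0 in all 3 to 54.6, 63.0 and 69.9 with NaBu. Its rises were 65.5 ± 10.2 and 62.5 ± 5.78. Intronic regions in MEIOSIN, a regulator of meiotic entry, and in CFAP53, a cilia gene, rose by 60.6 and 57.5 with NaPr and by 60.0 and 67.2 with NaBu.

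Joint falls were also found outside LMNA. The regions near TMEM217 and in ADGRE5, an adhesion receptor, had changes of −49.4 and −46.7 with NaPr and of −54.1 and −51.4 with NaBu, and were at 0 in all 6 treated libraries.

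Opposite calls were rare in AP-1 regions and in regions without a site, as counted above. Near PGBD2 (chr1:248892649-248893051) a region with 2 sites went from 0 in all 3 to 38.7, 51.4 and 41.1 with NaPr, a rise of 43.7 ± 10.2, and from 43.4 ± 5.90 (SD, n = 3) to 23.0, 21.0 and 18.5 with NaBu, a change of −22.6 ± 5.46 (adjusted p = 0.0146). In GRAMD1B, a sterol transporter, an intronic region rose by 44.0 ± 9.93 with NaPr and had a change of −12.1 ± 2.25 with NaBu, starting from 0 in the NaPr experiment and from 78.4 to 81.4 in the NaBu experiment. Near ANKRD33B the changes were −15.1 ± 3.92 with NaPr and 12.6 ± 1.42 with NaBu.

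**Figure D5:**
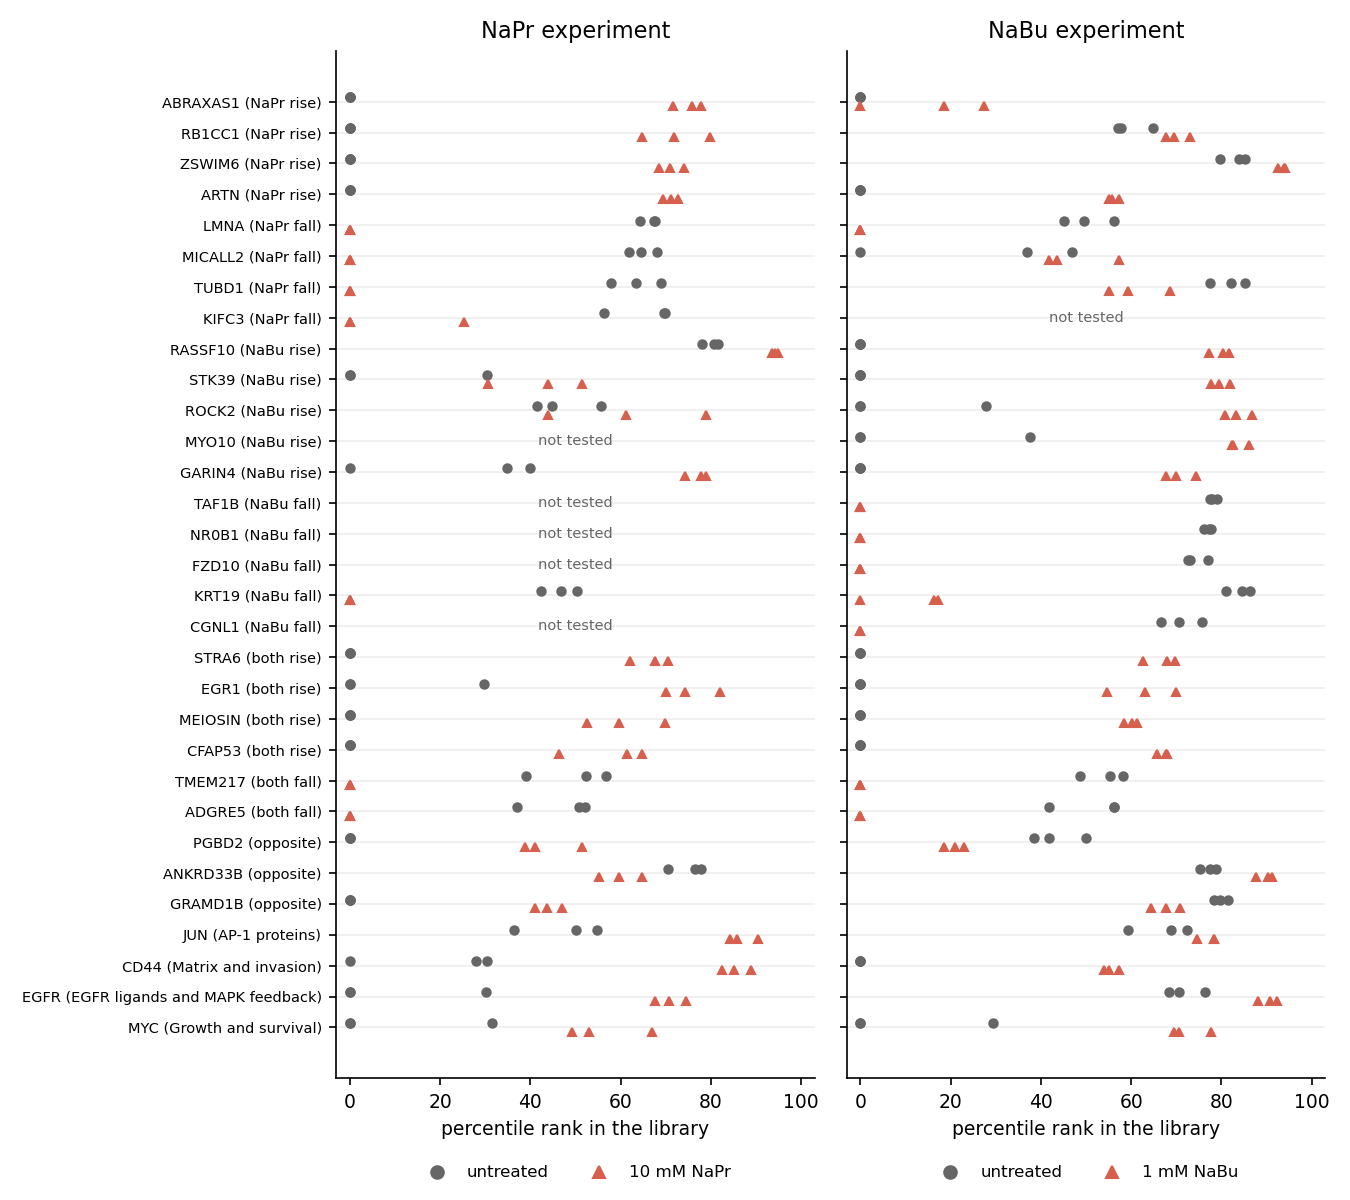
Percentile rank in each library (horizontal axis) of named AP-1 regions (vertical axis, nearest gene and the reason it was chosen), for the NaPr (left) and NaBu (right) experiments, with untreated libraries as circles and treated libraries as triangles. Ranks of 0 mean no listed peak, as in all 6 untreated libraries near STRA6; at RASSF10 the NaPr untreated libraries sit at 78.0 to 81.6 and the NaBu untreated libraries at 0.

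The strongest AP-1 regions hardly moved. The highest mean fold enrichment over the 12 libraries, 29.6, was near AKAP13, an anchor of protein kinase A (chr15:85296248-85297831), with ranks of 99.1, 98.2 and 98.4 untreated and 99.4, 98.9 and 99.3 with NaPr. Its NaBu experiment ranks were 99.9 to 100, and the changes were 0.577 ± 0.515 (adjusted p = 0.498) and 0.00323 ± 0.300 (adjusted p = 0.994). The next were near LMAN1, NXF3, ALKBH3 and EMP1, with mean fold enrichments of 28.3, 28.0, 27.5 and 27.5 and changes between 0.148 and 2.73 points, none of them called. A rank near 100 leaves little room to rise.

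Regions with the most sites did not move alike. The array near NID1 had ranks of 73.5, 72.6 and 73.6 untreated and 68.8, 76.8 and 71.2 with NaPr, a change of −0.952 ± 2.86, and 51.9, 59.5 and 36.2 untreated and 67.1, 63.8 and 70.9 with NaBu, a change of 18.1 ± 6.13 that was not called (adjusted p = 0.0521). The array near DBNDD1 had changes of −23.6 ± 11.6 and −19.3 ± 9.62, neither of them called. A region with 6 sites near ANKRD10 rose by 12.2 ± 1.23 with NaPr (adjusted p = 0.00323) and by 9.22 ± 0.643 with NaBu (adjusted p = 3.19e-04). An intronic region with 5 sites in WNT9A, a Wnt ligand, rose by 17.9 ± 1.79 with NaBu (adjusted p = 6.17e-04), from 76.8, 72.1 and 78.8 to 93.0, 92.8 and 95.6, and had a change of 0.782 ± 0.671 with NaPr. Reads in such tandem repeats can be hard to place. The study's methods count uniquely mapped reads and name a pipeline, but do not state how multiply mapped reads were treated.

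The counts per gene and per gene list below are to be read beside the shares over all tested regions, 4.54% higher and 3.97% lower with NaPr and 19.7% and 17.2% with NaBu, and over all AP-1 regions, 8.93% and 1.66% with NaPr and 28.0% and 11.5% with NaBu. Genes near AP-1 regions were taken as the nearest by transcript start, which need not be the genes that the regions act on. Of the 8241 nearest genes, 4140 had 1 AP-1 region, 666 had 5 or more and 49 had 10 or more. The most were near ARHGAP26, a GTPase activating protein, with 17 (3 of 15 tested called higher with NaPr, 4 higher and 2 lower of 14 with NaBu, the latter near the shares of all AP-1 regions), followed by SHANK2, a synaptic scaffold, with 16, of which 5 were called lower and 1 higher of 15 tested with NaBu. KCNMA1, the large-conductance potassium channel, had 15, with a median change of 15.2 points with NaPr and 10.2 with NaBu. ASAP1, DUSP5, EGFR and NAV2 had 14 each, and DUSP5 had the largest share of its distal regions with a site among these, 45.2% of 31. AOPEP had 13 and none of its 12 and 9 tested regions was called. CACNA1C and CDH4 also had 13, and CDH4 had 5 of 9 called higher with NaBu.

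AP-1 regions near the genes of AP-1 proteins themselves numbered 16, near 10 of 17 genes. With NaPr 3 of 14 tested rose and none fell, and with NaBu 1 of 14 rose and 3 fell. These are 21.4% higher with NaPr and 7.14% higher and 21.4% lower with NaBu, against 8.93%, 28.0% and 11.5% of all AP-1 regions. At JUN, the core AP-1 subunit (chr1:58779651-58780598, 3921 bp from a start), untreated ranks of 36.4 to 54.7 (47.1 ± 9.49, SD, n = 3) became 85.8, 84.3 and 90.4 with NaPr, a rise of 39.8 ± 4.94 (adjusted p = 0.00518). With NaBu the ranks were 59.3, 72.4 and 68.9 untreated and 78.3, 78.3 and 74.7 treated, a difference of 10.2 ± 3.52 that was not called (adjusted p = 0.0549).

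FOS, the partner of JUN, was nearest to 2 AP-1 regions, neither of them called with NaPr and 1 of them tested with NaBu. That one, 44167 bp away (chr14:75234314-75234850), went from 52.4, 60.1 and 59.0 to 34.2, 22.4 and 29.4 with NaBu, a change of −28.5 ± 5.29 (adjusted p = 0.00535). With NaPr its change was −5.08 ± 1.89 (adjusted p = 0.124). A region in JDP2, a repressor of AP-1, changed by −22.9 ± 3.40 with NaBu and one near BATF3 by 16.9 ± 4.03 with NaPr (adjusted p = 0.0348).

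Of 64 AP-1 regions near genes of matrix and invasion, 7 of 51 tested rose and none fell with NaPr, and 17 of 56 rose and 9 fell with NaBu. The shares higher, 13.7% and 30.4%, stood beside 8.93% and 28.0% of all AP-1 regions, and the share lower with NaBu, 16.1%, beside 11.5%. In an intron of CD44, the hyaluronan receptor (chr11:35166471-35167249), ranks of 30.4, 0 and 27.9 became 88.8, 85.2 and 82.4 with NaPr, a rise of 66.0 ± 8.67 (adjusted p = 0.00595), and 0 in all 3 became 53.9, 55.1 and 57.3 with NaBu, a rise of 55.5 ± 4.99. Regions at LAMA3, a laminin chain, rose by 22.9 ± 5.61 and 51.1 ± 5.15 and those nearest to ITGB6, an integrin, by 45.3 ± 10.7 and 39.2 ± 9.34, the latter region being in a coding exon of RBMS1. A region near MMP10, a stromelysin, rose by 47.9 ± 5.44 with NaBu from no listed untreated peak.

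Near EGFR ligands, receptors and MAPK feedback genes, 72 AP-1 regions gave 5 higher and none lower of 60 with NaPr and 18 higher and 6 lower of 56 with NaBu. With 8.33% and 32.1% higher and 10.7% lower with NaBu, these were near the 8.93%, 28.0% and 11.5% of all AP-1 regions. In an intron of EGFR (chr7:55185471-55186658) ranks of 0, 0 and 30.1 became 70.7, 67.5 and 74.5 with NaPr, a rise of 60.9 ± 10.4 (adjusted p = 0.0125). With NaBu 70.7, 76.3 and 68.4 became 90.8, 92.4 and 88.1, a rise of 18.7 ± 2.22 (adjusted p = 0.00104). DUSP5 and DUSP6 encode phosphatases that switch off ERK. One region near DUSP5 rose by 51.5 ± 10.2 with NaPr, another, 80335 bp from a start, by 38.7 ± 6.88 with NaBu, and one near DUSP6 by 43.7 ± 5.20 with NaBu.

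Growth and survival genes had 39 AP-1 regions, of which 9 of 32 tested rose and none fell with NaPr (28.1% higher against 8.93% of all AP-1 regions, median change 11.7 points), and 9 of 33 rose and 6 fell with NaBu (27.3% higher and 18.2% lower, against 28.0% and 11.5%). Near MYC, the proliferation factor, 7 AP-1 regions lay, of which 4 of 6 tested rose with NaPr and 3 of 5 with NaBu. In one of them, in the noncoding gene CASC11 (chr8:127688642-127689011, 46631 bp from a start), ranks of 0, 31.5 and 0 became 67.0, 53.0 and 49.2 with NaPr and 0, 29.4 and 0 became 77.7, 69.6 and 70.5 with NaBu, rises of 45.9 ± 11.8 (adjusted p = 0.0436) and 62.8 ± 8.56 (adjusted p = 0.00167). Another near MYC rose by 51.2 ± 10.4 with NaPr. A region near KLF6, a zinc finger factor, fell by 52.5 ± 7.88 with NaBu.

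Keratin and junction genes had 57 AP-1 regions, of which 3 of 53 tested rose and 1 fell with NaPr and 11 of 46 rose and 4 fell with NaBu. The shares higher, 5.66% and 23.9%, were below the 8.93% and 28.0% of all AP-1 regions, a difference that was not tested. The falls included the KRT19 region described above. Intronic regions in TJP1, a tight junction scaffold, and EZR, an actin linker of microvilli, rose by 64.4 ± 5.91 and 50.3 ± 4.31 with NaBu, and one near CTNNB1, β-catenin, rose by 53.6 ± 10.0 with NaPr from 0 in all 3 untreated libraries. In the NaBu experiment the CTNNB1 region had untreated ranks of 62.0 to 68.0 and a change of 6.78 ± 2.61 that was not called (adjusted p = 0.0786).

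For secreted signals and their receptors, 2 of 34 tested AP-1 regions rose and none fell with NaPr, and 7 of 32 rose and 8 fell with NaBu. The shares higher, 5.88% with NaPr and 21.9% with NaBu, stood beside 8.93% and 28.0% of all AP-1 regions, and the 8 lower of 32 beside 11.5%. A region near WNT5A rose by 39.6 ± 10.3 with NaPr, from no listed untreated peak. In the TGF-β pathway, an intronic region of TGFBR2, a receptor, rose by 26.3 ± 6.16 with NaBu. One in SMAD3, its signal transducer, rose by 24.5 ± 6.54 with NaBu, from no listed untreated peak to 31.4, 26.2 and 16.0. The last of these ranks was near the lowest of a listed peak. Of 8 AP-1 regions near SMAD3 tested with NaBu, 2 were called higher and 2 lower. A region in TGFB2, a ligand, had a change of −23.0 ± 2.27 with NaBu, from 88.8, 90.5 and 91.3 to 65.8, 72.0 and 63.7.

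Intestinal differentiation genes had 18 AP-1 regions, with 1 of 17 higher and none lower with NaPr and 4 of 14 higher and 2 lower with NaBu, 28.6% and 14.3% beside 28.0% and 11.5% of all AP-1 regions. Neighbouring regions of one gene could differ. Near AXIN2, a Wnt feedback gene, the region at chr17:65584173-65584329 rose by 52.3 ± 10.0 with NaPr, from no listed untreated peak, and the one at chr17:65585059-65585661 had a change of −6.36 ± 15.0 with NaPr and of −41.5 ± 5.91 with NaBu, to no listed treated peak. MUC13, a membrane mucin, had a region that rose by 19.7 ± 4.01 with NaBu, and SLC9A3, the apical sodium–proton exchanger, one that changed by −11.8 ± 1.65.

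A selection of 12 genes among those that the study itself named had 33 AP-1 regions, with 4 of 29 higher and none lower with NaPr and 14 of 29 higher and 2 lower with NaBu. The list left out other genes that the study named, among them CXXC5 and GNAZ, which it reported to lose accessibility with NaBu. The shares higher were 13.8% and 48.3%, beside 8.93% and 28.0% of all AP-1 regions. The study named some of these genes from the same ATAC-seq samples and others with its RNA-seq. This count is therefore not independent evidence of a direction. Near SSPN, sarcospan, 5 of 6 AP-1 regions rose with NaBu and none of 5 tested was called with NaPr. Single regions near ZNF703, SSPN and MYO3B rose by 50.1 ± 6.26, 39.9 ± 11.4 and 38.9 ± 6.35 with NaBu. With NaPr the study reported reduced accessibility of sites at CDKN1A and ZNF703, which are on the list. The AP-1 regions near them, 3 and 4 tested, had median NaPr changes of 13.3 and 10.1 points, and none was called. Whether these regions include the study's sites was not tested.

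The letters around the site varied between the groups of calls. The 9 bp palindrome ATGACTCAT or ATGAGTCAT was in 11.5% of AP-1 regions and 1.78% of all windows of this length, and its share was 10.3% of those called higher and 11.5% of those called lower with NaPr, and 10.5% and 13.1% with NaBu. The site followed by GC (TGACTCAGC or TGAGTCAGC, sought on both strands), a form that MAF and NRF2 dimers also accept, was in 16.8% of AP-1 regions and 2.61% of all windows. It was in 15.6% of AP-1 regions called higher and 26.4% of those called lower with NaPr, and in 14.9% and 20.2% with NaBu. AP-1 regions with it had a median change of 3.30 points with NaPr and those without it 5.22, and with NaBu these were 3.47 and 5.44. Each form contains the AP-1 site itself, and these shares were not tested.

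Motifs of other factors were sought on both strands in the same windows. GGAATG of TEAD, a partner of AP-1 at many enhancers, was in 16.8% of AP-1 regions, 16.9% of regions without a site and 16.0% of all windows, and in 19.5% of AP-1 regions called higher and 22.9% of those called lower with NaPr, against 17.4% and 17.2% with NaBu. TGTGGTT of RUNX was in 7.40% of AP-1 regions, 8.65% of regions without a site and 7.91% of all windows. CCCCACCC or CCACACCC of KLF factors was in 7.23%, 9.19% and 8.73% of these. ATCAAAG of TCF/LEF was in 4.37%, 4.99% and 4.67%, AGATAAG of GATA factors in 2.25%, 2.27% and 2.10%, and TGTTTAC of FOX factors in 3.40%, 3.53% and 3.43%. The cAMP response element TGACGTCA, which differs from the AP-1 site by an added base, was in 0.185%, 0.246% and 0.389%, and CCGGAAGT of ETS factors in 0.202%, 0.292% and 0.691%. CAAAGTCCA of HNF4 was in 0.577%, 0.631% and 0.580%, and TTGCGCAA of CEBP factors in 0.0346%, 0.0478% and 0.0574%. TEAD was not alone in a larger share among the 227 AP-1 regions called lower with NaPr. There RUNX had 12.3%, KLF 11.9%, TCF/LEF 7.49% and the cAMP response element 0.441%, each above its share of all AP-1 regions. GATA, FOX, HNF4, ETS and CEBP were below theirs. In AP-1 regions called higher with NaPr, RUNX had 7.06%, KLF 9.44% and TCF/LEF 3.61%. These shares were not tested. A match describes the letters of a window and not the binding of a factor.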

How the data were processed

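ATAC-seq peak lists of 12 SW480 libraries were analysed, and the CT26 lists were not analysed here. The authors aligned reads to hg38 with Bowtie2 (2.3.1) and called peaks per library with MACS2 (2.1.0), per the study's methods and the submitters' processing notes. The deposited lists give each summit's fold enrichment over local background as a ratio, and its −log10 p and −log10 q. The score column of the deposited lists was not used. The authors' differential test on reads (DiffBind) was not repeated.

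Intervals overlapping by at least 1 bp were merged in Python 3.11.15 and placed on GENCODE 44. For each comparison, percentile ranks were tested for the regions that at least 2 of its 6 libraries listed, with limma 3.58.1 (R 4.3.3; lmFit, eBayes with trend, two-sided, 3 against 3), with Benjamini-Hochberg adjustment over all tested regions and calls below 0.05. Changes are differences of mean rank in percentile points, not folds. Replicates shared at most 0.796% of identical intervals. Scripts were tested on simulated data.

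Members and gene lists were chosen with earlier results of these data known. Named regions were the 5 largest non-overlapping rises and falls per compound, the 4 largest joint changes each way, the 3 largest opposite ones, the 5 strongest, the 5 with most sites and up to 4 per gene list, of which 3 regions are not reported here. Alternatives covered the ranking, filters, scaling, window, overlap, left-out libraries and a replicate block.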

Additional observations from a re-analysis of the deposited data

How the results depend on the processing

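Leaving out each library in turn gave 0 to 548 AP-1 regions called higher and 0 to 50 called lower with NaPr, and 3223 to 3652 and 1191 to 1383 with NaBu. With the replicate number as a block, 119 were called higher and 4 lower with NaPr and 3641 and 1507 with NaBu. Samples with the same number had correlations of 0.00709 to 0.0463, and those with other numbers −0.0337 to 0.0191. The labels do not state whether equal numbers mark pairs. NaPr counts moved by over 1.5 times to 576 higher and 78 lower when ranked by fold enrichment, to 606 and 108 for regions with a peak in at least 1 library, to 347 and 7 on uncentred log2 fold enrichment, to 1955 and 21 on log2 pileup over background, and to 750 and 114 with a site within 50 bp. Only the lower count moved to 144 in limma without trend, to 619 on the median-centred pileup and to 510 with a site anywhere in the region. NaBu counts moved to 2486 higher with a peak in both arms (an alternative chosen after seeing the data), to 2453 higher when ranked by fold, to 1557 and 903 on uncentred and 1374 higher on median-centred log2 fold enrichment, to 1789 and 946 with the top 50000 intervals, to 2447 and 1007 within 50 bp and to 5756 and 2528 with a site anywhere. The alternative sites, shorter lists, peak filters and log2 scalings change the number of regions tested. The log2 scalings held only regions with a peak in all 6 libraries, 7417 AP-1 regions with NaPr and 7912 with NaBu. The cause of the moves was not tested.

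The median change stayed above 0 for 1, 2 and 3 or more sites in every alternative that gave one. With NaPr the moved values were 2.98 and 4.56 (1 and 2 sites) with a peak in both arms, 4.17 (1 site) ranked by fold, 3.89 and 4.68 (1 and 2 sites) with a peak in at least 1 library, 7.12 and 11.0 (2, 3 or more) with the top 50000 intervals, 5.44 and 9.83 (1, 3 or more) within 50 bp, 3.08 and 3.98 (1, 2) with a site anywhere, 3.18 (1 site) at untreated summits and 9.06, 13.1 and 15.2 as the mean over 4 classes of mean rank. With NaBu they were 2.28, 3.38 and 3.97 with a peak in both arms, 2.70, 2.68 and 3.63 by fold, 4.41 (1 site) with a peak in at least 3 libraries, 3.83 and 6.02 (1, 2) with the top 50000 intervals, 11.2 (3 or more) within 50 bp, 4.42, 4.29 and 3.90 anywhere, 3.10, 4.16 and 3.64 at untreated summits and 8.70, 11.6 and 11.4 over the classes of mean rank.

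Named regions kept their direction in the alternatives run on them: the ranking by fold, the block, each left-out library, the q limit and, where the region was still tested, the top 50000 intervals. Many of them had no listed peak in any library of one arm. None of these alternatives could reverse the direction of such a region, so its kept direction is no support. Of 36 named NaPr calls, 9 kept an adjusted p below 0.05 with the block, 17 by fold, and 14 to 23 without an untreated library, and none without a treated one. Of 50 NaBu calls, 48 did with the block, 46 by fold and 47 to 50 without 1 library. With 3 libraries per group and list limits that differ, regions near the end of a list are the least certain.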

Other observations

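The site in the region near STK39 lies in letters of an Alu element, a primate-specific repeat, and windows with the Alu letters GGGATTACAGG on either strand were therefore counted, a split made after the sequences had been seen. These letters were in 373 AP-1 regions (2.15%), in 1.04% of distal regions without a site and in 1.01% of all windows. With NaBu, 130 of 263 tested AP-1 regions with these letters were called higher (49.4%) and 4 lower (1.52%), with a median change of 21.3 percentile points, against 27.6%, 11.7% and 4.89 points in AP-1 regions without them. With NaPr, 36 of 246 were called higher (14.6%) and 1 lower (0.407%), with a median change of 16.7 points against 4.73. Over all tested regions 19.7% were higher and 17.2% lower with NaBu, and 4.54% and 3.97% with NaPr. In 73 of the 373 regions the untreated NaBu libraries all lacked a listed peak that the treated ones all had, and 3 showed the reverse. With NaPr these were 39 and 2. Such regions could move one way only, and those with peaks in both arms were not counted separately.

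Distal regions with the Alu letters and no AP-1 site had median changes of 10.2 points with NaBu and 3.60 with NaPr, and 195 of 636 (30.7%) were called higher with NaBu. Here too, 93 regions could only rise with NaBu, as the untreated libraries all lacked a peak that the treated ones all had, and 9 could only fall. The median rank of the AP-1 regions with these letters was 0 in all 3 NaBu untreated libraries and 41.2 to 42.2 in the 3 treated ones, and it was 0 to 30.4 and 43.9 to 45.4 in the NaPr experiment. They were weak regions, with a median mean rank of 25.2 in the NaBu experiment, near the limit of the lists. Peaks in repeats depend on how multiply mapped reads were treated. The study's methods count uniquely mapped reads but do not state this treatment, and its part in these values was not tested.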
